A study of Mus musculus with 24 samples.

Results

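The comparison described here sets 2 regimens side by side in mouse skin at day 15: daily injections of dihydrotestosterone (DHT) with an HLX extract on the skin, HLX standing for the Chinese herbal medicine Hanlianxiang, against daily saline with solvent alone applied. Its members are the 4 treated and the 4 control libraries of that day, 8 of the 24 libraries in the study, and the 13039 genes of the 18892 in the deposited table that reached at least 1 FPKM in at least 4 of the 24 libraries. FPKM divides a gene's fragment count by its length in kilobases and by the total fragments of that library. Each library is the poly(A) RNA of 1 mouse, and mice were assigned to control, model and treatment at random. The model group, used here only as a reference, received DHT injections and solvent, so DHT is shared by the treated and model mice and absent from the controls. No group received the extract without DHT, so the treated mice differ from the controls in both agents at once. Strain, sex, age, body site, DHT dose and extract composition are not given in the sources used here.

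DHT is the most potent natural androgen. In some androgen-sensitive follicles, though not in all, the dermal papilla cells that receive this signal release factors that shorten the growth phase (anagen) and favour regression (catagen). Hair shaft keratins, keratin-associated proteins and inner root sheath proteins are made only by growing follicles, so their transcripts follow the hair cycle, while the surrounding epidermis renews itself and forms a cornified barrier throughout. In whole skin, fewer cells of a type and less RNA per cell cannot be told apart.

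Skin markers were present in all 8 libraries. The summed level of 6 epidermal markers (Krt5, Krt14, Krt1, Krt10, Lor and Flg) ran from 1596 to 1749 FPKM in the controls and from 997 to 1690 FPKM in the treated libraries, and 6 hair follicle markers summed to 7223 to 9617 and 8611 to 10440 FPKM. Kidney markers, which reached 24.5 to 28.1 FPKM in the day-10 control libraries, summed to at most 0.107 FPKM in these 8. Recovered depth over all 24 libraries ran from 3.705e+07 to 4.112e+07 reads. The treated libraries varied more than the controls: the median gene SD on the log2(FPKM + 1) scale was 0.194 among the treated mice and 0.099 among the control mice.

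Treated replicate 3 stood apart from the other 3 treated libraries. Its correlations across genes with treated replicates 1, 2 and 4 were 0.9695, 0.9283 and 0.9535. Replicates 1 and 2 reached 0.9763, 1 and 4 0.9820 and 2 and 4 0.9877, and control pairs ran from 0.9842 to 0.9918. Replicate 2 lay farthest from the control mean, with an SD of log2 differences of 0.472, against 0.342, 0.331 and 0.315 in replicates 1, 3 and 4. Replicate 3 lay above all 4 controls in 5007 genes and below them in 3625. Treated replicates 1, 2 and 4 lay below in 4985, 5904 and 4194 genes and above in 3502, 3700 and 3205. Genes named below that gained a call when replicate 3 was left out have their value without it beside them. Leaving out treated replicate 1, 2 or 4 instead gave 0, 3 and 34 calls, and those fits are not given gene by gene. A call gained without replicate 3 can go with a smaller difference, as for Krt14. In the fit without replicate 3, 5.29% of all genes were called higher and 15.1% lower.

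At day 15, 41 genes differed between treated and control skin, 37 lower and 4 higher in the treated mice. That is 0.314% of the genes tested, with 0.284% lower and 0.0307% higher. The falls included protease inhibitors of the serpin family (Serpinb6e and Serpina3b), epidermal genes linked to skin T cells (Skint3, Skint4 and Ccl27a), the desquamation inhibitor Spink5, the dermal proteoglycan Ogn and the transcription factor Klf10. The rises were small and led by Wdr89, whose mean stood at 156.2% of control. Of the 37 falls, 7 were more than 2-fold on the log2(FPKM + 1) scale, and none of the 4 rises was. Over all genes tested, called or not, 20 were lower and 40 were higher by more than 2-fold. The median difference over all genes tested was -0.02.

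Calls were made with limma at an adjusted p under 0.05 (Benjamini-Hochberg over 13039 genes), and 28 of the 41 share the highest called value of 0.04971, with the next gene at 0.05005. With only the treated and control groups in the fit, limma called 0 genes, with 0.0663 the lowest adjusted p and 1663 genes at an unadjusted p under 0.05. At an unadjusted p under 0.05 the fit of all 24 libraries held 2572 genes, 19.7% of those tested. In 37 of the 41 called genes the treated and control libraries did not overlap. Over all genes such a separation occurred in 4% as lower and in 3.1% as higher values in the treated libraries.

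**Figure D1:**
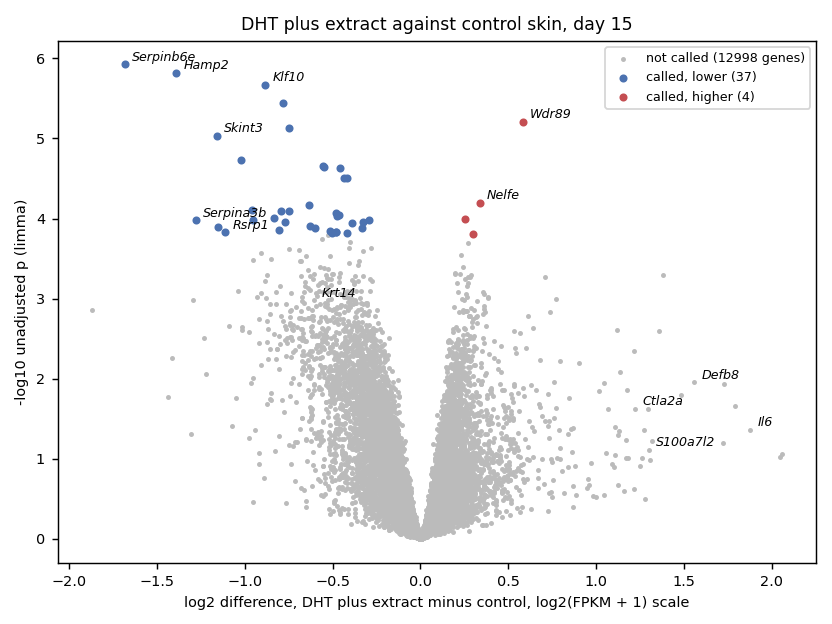
Each point is 1 of 13039 genes, with the log2 difference between treated and control skin at day 15 on the horizontal axis and the -log10 unadjusted p of limma on the vertical axis; blue points are the 37 genes called lower and red points the 4 called higher. Serpinb6e, Hamp2 and Klf10 lie highest among the falls, and genes with larger positive differences than the called rises, such as Il6 and Defb8, were not called.

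Serpins, which trap proteases in an inactive complex, gave the largest difference among the called genes on the log2(FPKM + 1) scale. Serpinb6e, an intracellular clade B serpin, measured 7.34, 4.23, 3.63 and 4.67 FPKM in control replicates 1 to 4 and 0.0668, 0.731, 0.821 and 2.22 FPKM in treated replicates 1 to 4. Every treated library lay below every control, and replicate 4 was the highest of the treated. The log2 difference was -1.68 ± 0.25 (SE, n = 4 mice a side; adjusted p = 0.00926). The treated mean was 19.3% of control.

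Serpina3b, a secreted clade A serpin of a cluster that is expanded in the mouse, measured 54.6, 39.3, 53.9 and 38.9 FPKM in the controls and 12.7, 16.2, 19.4 and 28.6 FPKM in the treated mice. The groups did not overlap, and the treated mean was 41.1% of control. Its log2 difference was -1.28 ± 0.27 (SE; adjusted p = 0.0497). The neighbouring family member Serpinb6d measured 0.413, 0.501 and 0.525 FPKM in treated replicates 1, 2 and 4 and 5.04 FPKM in replicate 3, which overlaps the control range of 3.48 to 16.3 FPKM, and it was not called (log2 difference -1.87, adjusted p = 0.0872; without replicate 3 -2.38, adjusted p = 0.00191). Of the 31 tested genes of the serpin clusters, 2 fell and none rose, beside 0.284% lower and 0.0307% higher over all genes. The median of the 31 was 0.01 against -0.02 over all genes. With treated replicate 3 left out, 7 were called higher and 3 lower, beside 5.29% higher and 15.1% lower over all genes. These genes have near-identical neighbours, and how reads shared between copies were counted is not given in the sources used here.

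The first 3 genes of the ranked falls with a single entry in RefSeq's promoter table (build GRCm38.p6, another build than the GRCm39 of the deposited values) are Serpinb6e, Serpina3b and Skint3. Their promoter windows, from 250 bases before to 50 bases after the start, are shown because these genes had the largest named falls. Capitals mark AGAACA, the half-site letters of the steroid hormone response element, or TATAAA, each read on both strands (TGTTCT and TTTATA on the printed strand); these motifs do not overlap in the windows shown.
Serpinb6e, chr13:33843359-33843658, minus strand: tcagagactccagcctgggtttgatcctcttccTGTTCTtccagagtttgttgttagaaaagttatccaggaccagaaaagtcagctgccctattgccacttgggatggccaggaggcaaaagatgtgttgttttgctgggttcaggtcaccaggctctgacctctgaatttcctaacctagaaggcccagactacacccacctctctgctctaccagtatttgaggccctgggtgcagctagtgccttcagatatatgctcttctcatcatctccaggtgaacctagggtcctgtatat
Serpina3b, chr12:104127746-104128045, plus strand: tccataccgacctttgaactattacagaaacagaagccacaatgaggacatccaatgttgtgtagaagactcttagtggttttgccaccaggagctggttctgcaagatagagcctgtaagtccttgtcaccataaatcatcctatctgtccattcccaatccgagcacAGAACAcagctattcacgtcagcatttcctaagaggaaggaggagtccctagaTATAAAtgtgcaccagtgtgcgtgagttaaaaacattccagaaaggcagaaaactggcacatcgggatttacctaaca
Skint3, chr4:112231995-112232294, plus strand: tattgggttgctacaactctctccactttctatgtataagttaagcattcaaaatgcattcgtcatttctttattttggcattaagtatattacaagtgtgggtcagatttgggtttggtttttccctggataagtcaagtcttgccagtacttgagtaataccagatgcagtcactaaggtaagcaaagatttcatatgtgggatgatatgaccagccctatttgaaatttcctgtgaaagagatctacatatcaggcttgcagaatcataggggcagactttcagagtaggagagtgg
The AGAACA letters occurred 1 time in the Serpinb6e window and 1 time in the Serpina3b window, and 19.0% of all 32851 promoter windows of this length hold them. TATAAA occurred 1 time in the Serpina3b window, against 13.6% of all windows. Matches are letters only and say nothing about binding.

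Hamp2, a paralog of the iron hormone hepcidin, was low in control skin at 0.913, 1.23, 1.80 and 3.45 FPKM. It was listed at 0 in treated replicates 1 and 2 and stood at 0.0618 and 0.0568 FPKM in replicates 3 and 4. The groups did not overlap (log2 difference -1.39 ± 0.21, SE; adjusted p = 0.00926). It was the single call among the 27 tested antimicrobial and acute-phase genes. Of the 27, 6 were called higher and 2 lower without treated replicate 3, beside 5.29% higher and 15.1% lower over all genes.

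Genes that link the epidermis to its resident T cells were among the falls. Skint3, a butyrophilin-like surface protein of the family named for Skint1, which selects dendritic epidermal T cells in the thymus, measured 6.87, 6.46, 7.43 and 6.94 FPKM in the controls and 1.95, 1.48, 3.36 and 3.96 FPKM in the treated mice. Control values were tight, and the treated libraries were all lower, with replicates 3 and 4 the nearest to control. The log2 difference was -1.16 ± 0.20 (SE; adjusted p = 0.0173).

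Skint4 measured 2.38, 2.32, 2.44 and 2.67 FPKM in the controls and 0.921, 0.665, 1.14 and 1.38 FPKM in the treated mice, again without overlap (log2 difference -0.78 ± 0.13, SE; adjusted p = 0.0118). All 8 tested members of the Skint family, a grouping made after their values were seen, had negative differences, from -1.16 to -0.43 with a median of -0.56, and 2 of the 8 were called. Over all genes, 7184 of 13039 had negative differences and 0.284% were called lower. These paralogs are similar in sequence, and how the authors counted reads shared between them is not given in the sources used here.

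Ccl27a, a keratinocyte chemokine that draws memory T cells to skin, measured 9.52, 9.70, 10.6 and 8.41 FPKM in the controls and 5.89, 3.51, 5.60 and 5.61 FPKM in the treated mice. The treated values were tight apart from replicate 2, and the groups did not overlap (log2 difference -0.79 ± 0.16, SE; adjusted p = 0.0497). Its near-identical copies make the level uncertain. It was the single call among 36 tested cytokines and chemokines with all libraries in the fit. Nlrp10, a NOD-like receptor found in keratinocytes, fell by 0.75 ± 0.15 on the log2 scale (adjusted p = 0.0497), from a control range of 5.78 to 7.85 FPKM to a treated range of 2.51 to 4.84 FPKM. Icosl, the ligand of the T-cell costimulator ICOS, fell by 0.51 ± 0.11 (adjusted p = 0.0497).

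Transcripts of T cells themselves overlapped between the groups. The summed level of 3 T-cell markers ran from 3.39 to 7.75 FPKM in the controls and from 2.66 to 8.59 FPKM in the treated libraries. Of 19 tested T and innate lymphocyte genes, 1 fell, which is Skint3 itself, and none rose, with a median of -0.07.

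The barrier gene Spink5 encodes an inhibitor of the kallikrein proteases that shed the outermost epidermal cells. It measured 46.4, 41.2, 44.8 and 47.9 FPKM in the controls and 25.8, 18.8, 22.5 and 34.9 FPKM in the treated mice, without overlap. The log2 difference was -0.83 ± 0.17 (SE; adjusted p = 0.0497). Sprr2f, a small proline-rich precursor of the cornified envelope, measured 0.818 to 1.65 FPKM in the controls and 0.0443 to 0.286 FPKM in the treated mice (log2 difference -1.02 ± 0.18, SE; adjusted p = 0.0275). These were the falls among 54 tested cornified envelope and differentiation genes, whose median was -0.08, and none of them rose. Over all genes, 0.284% were called lower and 0.0307% higher. Of the 54, 6 were called lower and none higher without treated replicate 3, beside 15.1% lower and 5.29% higher over all genes.

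Keratins of basal keratinocytes had lower values without reaching the call. Krt14 measured 604, 550, 540 and 600 FPKM in the controls and 416, 369, 299 and 439 FPKM in the treated mice, so the groups did not overlap (log2 difference -0.60 ± 0.16, SE; adjusted p = 0.0869). Its difference without treated replicate 3 was -0.49 (adjusted p = 0.0366). Krt5 separated the groups as well, at 689 to 783 against 502 to 638 FPKM (log2 difference -0.34, adjusted p = 0.146). Of 16 basal epidermis genes, 5 were lower in every treated library than in every control and none was called, beside 4% lower over all genes. Other epithelial genes just above the threshold, named by their p within their lists, were Epcam (-0.57, adjusted p = 0.0811), the retinoic acid carrier Crabp2 (-0.64, adjusted p = 0.0811) and the wound keratin Krt6a (-0.74, adjusted p = 0.0843). Leaving out treated replicate 3, these were -0.68 (adjusted p = 0.00167) for Epcam, -0.72 (adjusted p = 0.00403) for Crabp2 and -0.71 (adjusted p = 0.0221) for Krt6a.

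Transport and signalling genes made up part of the remaining falls. Paqr7, a membrane progestin receptor, measured 16.7, 19.4, 20.5 and 18.2 FPKM in the controls and 7.37, 6.36, 7.75 and 10.4 FPKM in the treated mice. The treated mean was 42.5% of control, with no overlap (log2 difference -1.15 ± 0.25, SE; adjusted p = 0.0497). Slc15a1, the proton-coupled transporter of short peptides, measured 14, 13.5, 12.7 and 15.8 FPKM in the controls and 7.66, 4.92, 6.04 and 8.74 FPKM in the treated mice (log2 difference -0.96 ± 0.20, SE; adjusted p = 0.0497). All 4 treated libraries were low for both genes, replicate 3 included. Sema3c, a secreted semaphorin guidance cue, fell by 0.63 ± 0.13 (adjusted p = 0.0497).

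Palmd, a cytosolic paralemmin relative, measured 49.0, 47.4, 45.8 and 48.0 FPKM in the controls and 25.9, 22.0, 35.8 and 29.8 FPKM in the treated mice. Control values lay within a narrow band, and the treated libraries were all below it (log2 difference -0.75 ± 0.13, SE; adjusted p = 0.0160). Treated mice lay close to the model mice for this gene, at a treatment-model difference of 0.01 (adjusted p = 0.953).

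In the dermis, Ogn (osteoglycin, a small leucine-rich proteoglycan of the collagen matrix) fell. It measured 90.0, 75.8, 68.6 and 67.7 FPKM in the controls and 34.6, 30.2, 54.5 and 57.0 FPKM in the treated mice, with treated replicates 3 and 4 nearest to control and no overlap. The log2 difference was -0.81 ± 0.17 (SE; adjusted p = 0.0497). Some related proteoglycans had negative differences without being called: Omd at -0.80 (adjusted p = 0.102), Aspn at -0.82 (adjusted p = 0.107) and Lum at -0.71 (adjusted p = 0.108). Without treated replicate 3, Omd (-0.999, adjusted p = 0.00633) and Aspn (-0.87, adjusted p = 0.0337) were called and Lum was not (adjusted p = 0.0525). Other members went the other way, and limma called Prelp (0.70, adjusted p = 0.00293) and Bgn (0.67, adjusted p = 0.0148) higher in that fit. Dcn (0.15), Fmod (-0.18) and Kera (-0.26) were not called in it. Ogn was the single call among 61 dermal matrix genes, whose median was 0.25.

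Klf10, a zinc finger repressor induced early by TGF-beta, measured 23.0, 21.9, 18.4 and 21.5 FPKM in the controls and 9.85, 8.12, 17.2 and 10.5 FPKM in the treated mice. Replicates 1, 2 and 4 were low, and replicate 3 lay just under the lowest control. The log2 difference was -0.88 ± 0.14 (SE; adjusted p = 0.00926). Without replicate 3 it was -1.09 (adjusted p = 2.1e-06).

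Several called genes shared this layout, with treated replicate 3 at or near the control level. Jrkl, a gene derived from a DNA transposase, measured 5.35 to 5.55 FPKM in the controls and 2.53, 2.38, 5.08 and 3.17 FPKM in the treated mice (log2 difference -0.63, adjusted p = 0.0497). Rsrp1, an arginine- and serine-rich protein, measured 96.0, 116, 109 and 122 FPKM in the controls and 40.6, 33.7, 113 and 42.1 FPKM in the treated mice (log2 difference -1.11, adjusted p = 0.0497). Rsrp1, the zinc finger genes Zfp948 and Zfp655 and the ER translocation gene Sec62 were the 4 called genes in which the groups overlapped, and in each the overlap came from replicate 3. By contrast, Sgms1, a sphingomyelin synthase, was even across the treated mice at 5.41, 5.54, 5.69 and 5.85 FPKM against 7.62 to 8.56 FPKM in the controls (log2 difference -0.46, adjusted p = 0.0275).

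Of the 4 rises, Wdr89, a WD-repeat protein, measured 7.90, 8.56, 8.53 and 7.95 FPKM in the controls and 13.7, 13.3, 13.1 and 11.3 FPKM in the treated mice. All treated libraries were high and replicate 4 was the lowest of them (log2 difference 0.58 ± 0.10, SE; adjusted p = 0.0160). Nelfe, a subunit of the complex that pauses RNA polymerase II, measured 24.4 to 27.5 FPKM in the controls and 31.3 to 33.8 FPKM in the treated mice (log2 difference 0.34, adjusted p = 0.0497). Thap4, a heme-binding THAP protein, rose by 0.30 (adjusted p = 0.0497), and Ccdc22, part of an endosomal sorting complex, by 0.26 (adjusted p = 0.0497). The libraries did not overlap in any of the 4.

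**Figure D2:**
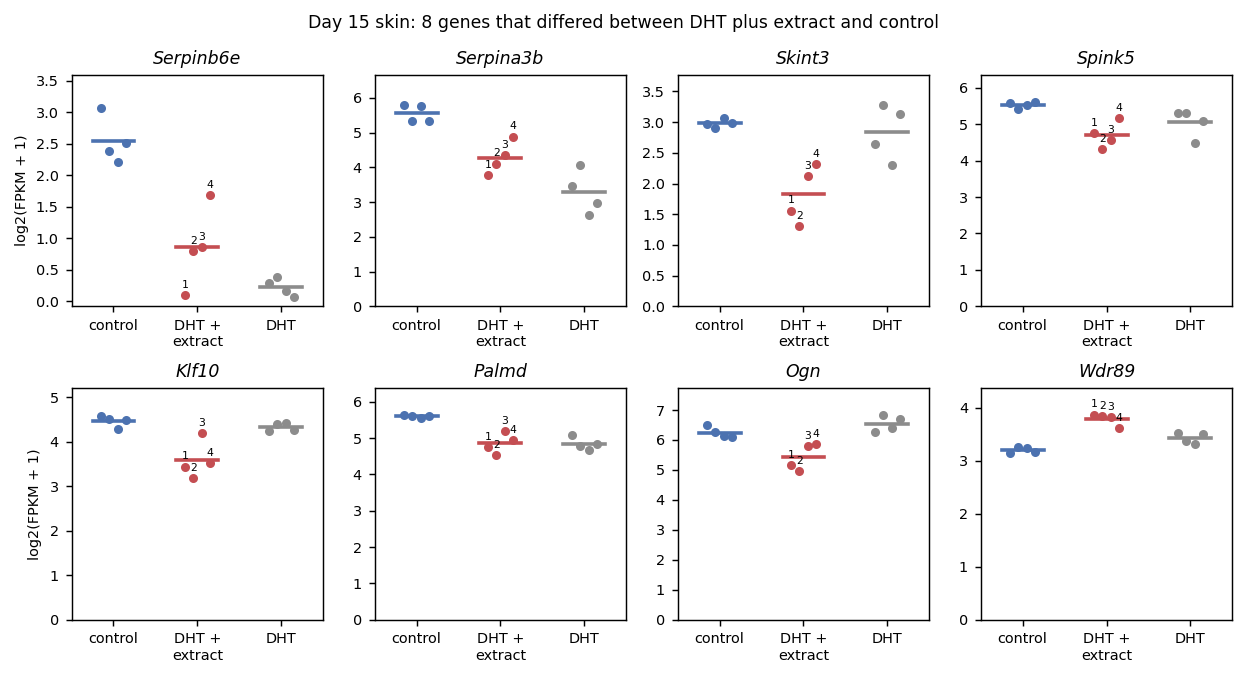
Points are single libraries of day 15 on the log2(FPKM + 1) scale for 8 called genes, with bars at the group mean of 4 mice and treated replicates numbered 1 to 4; DHT alone is the model group. Treated values lie below all controls in 7 panels and above them for Wdr89, and replicate 3 lies closest to control for Klf10 and Palmd.

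The number of calls rested on single libraries. Leaving out treated replicate 3 raised it from 41 to 2665, 20.4% of the genes tested (1975 lower and 690 higher), with all 41 among them. Leaving out treated replicate 1, 2 or 4 gave 0, 3 and 34 calls, and leaving out control replicate 1, 2, 3 or 4 gave 1, 5, 14 and 2. The 0 calls of limma without treated replicate 1 stood beside 1580 genes at an unadjusted p under 0.05. All 41 differences kept their direction in each of these 8 fits, which was fixed in advance for the 37 genes without overlap between the groups. Hamp2 was called in 7 of the 8, Serpinb6e in 6, Klf10 in 5, and Skint4 and Wdr89 in 4.

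**Figure D3:**
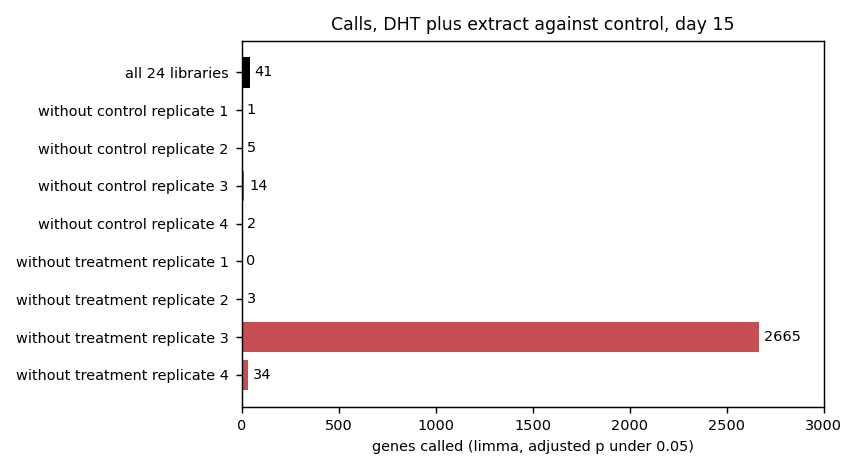
Bars give the number of genes called between treated and control skin at day 15 with all 24 libraries and with 1 of the 8 compared libraries left out at a time. The count ranges from 0 without treated replicate 1 to 2665 without treated replicate 3.

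No hair shaft gene was called between treated and control skin, while many fell with DHT alone. The comparison of DHT alone with control shares its control libraries with the main one, so the values are given side by side, and the direct test is treated against model. None of 55 keratin-associated protein genes was called in treated against control skin, with a median difference of -0.29. In model against control 28 were called lower, with a median of -0.96, beside 6.56% called lower over all genes. In treated against model 22 were called higher and none lower, with a median of 0.64, beside 10.3% higher and 9.32% lower over all genes.

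Among the keratin-associated proteins, which cross-link keratin filaments in the hair cortex and cuticle, Krtap3-2 measured 402, 398, 268 and 404 FPKM in the controls, 350, 303, 289 and 341 FPKM in the treated mice and 217, 99.0, 154 and 151 FPKM in the model mice. Treated and control values overlapped (log2 difference -0.18, adjusted p = 0.701), and all treated values lay above all model values (1.09, adjusted p = 0.00411). Krtap4-7 and Krtap9-1 gave treatment-model differences of 1.05 (adjusted p = 0.0137) and 1.02 (adjusted p = 0.0170), with treatment-control differences of -0.27 and -0.43 that were not called. In this family, 51 of 55 treatment-control differences were negative and 4 were positive.

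Hair keratins and inner root sheath genes were not called against control either. Of 16 hair shaft keratins none was called against control (median 0.16), 3 were lower in model against control (median -0.60) and 11 were higher in treated against model (median 0.81). Over all genes, 6.56% were lower in model against control, and 10.3% were higher and 9.32% lower in treated against model. Krt85, a matrix and cuticle keratin, measured 369, 459, 523 and 412 FPKM in the controls and 663, 510, 708 and 476 FPKM in the treated mice, which overlap (log2 difference 0.41, adjusted p = 0.218). Of 15 inner root sheath and companion layer genes none was called against control (median 0.08). In model against control 11 of them were lower (median -0.63), and 12 were higher in treated against model (median 0.72), beside the same shares over all genes. Krt71, a sheath keratin, measured 2613, 2881, 3435 and 3346 FPKM in the controls and 3811, 3514, 3712 and 3472 FPKM in the treated mice. All treated libraries lay above all controls for Krt71, without a call (log2 difference 0.25, adjusted p = 0.449). The 16 hair matrix regulators, among them the keratin gene activator Foxn1 (0.21, adjusted p = 0.592), had no call against control and 8 rises against the model. In model against control 5 of these 16 were lower, again beside the same shares over all genes.

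Growth factors of the hair cycle were not called against control. Fgf5, the signal that ends anagen, measured 8.87, 6.81, 7.22 and 8.02 FPKM in the controls and 10.9, 6.73, 13.9 and 8.10 FPKM in the treated mice, with overlap (log2 difference 0.28 ± 0.20, SE; adjusted p = 0.448). In the model mice it measured 5.40, 2.77, 3.05 and 4.13 FPKM, below every treated library, and the treatment-model difference was 1.16 (adjusted p = 0.00119). Igf1, a papilla factor that sustains growth, was lower in every treated library (7.96 to 9.74 FPKM) than in every control (10.0 to 15.1 FPKM) without being called (log2 difference -0.38, adjusted p = 0.239).

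The other signals of the fixed panel were Fgf7 (0.19), Vegfa (-0.17), Tgfb1 (0.50), Tgfb2 (-0.16), Bmp2 (-0.27), Bmp4 (0.00), Wnt10b (-0.18), Shh (-0.05), Ctnnb1 (-0.11) and Lef1 (0.06), none of them called. Without treated replicate 3, Tgfb1 (0.75, adjusted p = 0.00471) and Bmp2 (-0.45, adjusted p = 0.0414) were called and the other 8 were not. Dkk1 was listed at 0 in all 8 libraries and Srd5a2 reached at most 0.476 FPKM, so neither was tested. Of 38 tested hair cycle signals none was called, with a median of -0.11. Leaving out treated replicate 3 gave 4 higher and 2 lower calls among the 38, beside 5.29% higher and 15.1% lower over all genes. The lowest p of that list belonged to Igfbp5, which binds insulin-like growth factors, at 59.7 to 78.8 FPKM in the controls and 41.5 to 43.8 FPKM in the treated mice (log2 difference -0.61, adjusted p = 0.0811; without treated replicate 3 -0.62, adjusted p = 0.0121).

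Androgen and glucocorticoid targets were mixed. Fkbp5, a chaperone partner of steroid receptors that androgens and glucocorticoids induce, measured 36.0, 31.9, 24.7 and 32.0 FPKM in the controls and 41.0, 33.0, 19.6 and 37.5 FPKM in the treated mice (log2 difference 0.03 ± 0.24, SE; adjusted p = 0.959). In the model mice Fkbp5 measured 41.6 to 81.8 FPKM, and the treatment-model difference was -0.74 (adjusted p = 0.0379). Srd5a1, the skin 5-alpha reductase gene that makes DHT, differed by -0.07 from control (adjusted p = 0.725).

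Other steroid-responsive genes came closer to the call. Tsc22d3, the glucocorticoid-induced leucine zipper gene, measured 55.0, 55.5, 53.9 and 58.9 FPKM in the controls and 24.1, 33.0, 41.1 and 35.2 FPKM in the treated mice. The groups did not overlap (log2 difference -0.75, adjusted p = 0.0650), and treated mice were also below model mice (-0.86, adjusted p = 0.00288). Without treated replicate 3 the difference from control was -0.86 (adjusted p = 0.00242). Klf9, another glucocorticoid target, had a difference of -0.48 (adjusted p = 0.0872) and without that library of -0.58 (adjusted p = 0.00337). Of 16 tested genes of this list none was called against control. In every treated library 3 were lower and 1 was higher than in every control, beside 4% and 3.1% over all genes. Leaving out treated replicate 3 gave 2 higher and 3 lower calls, beside 5.29% higher and 15.1% lower over all genes in that fit.

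Interferon-stimulated genes, which cells switch on in response to virus-sensing signals, were not called in treated skin against control, and some of them rose with DHT alone. None of 46 was called in treated against control, with a median of -0.17. In model against control 19 of the 46 rose, with a median of 0.96, beside 4.23% called higher over all genes. The list's median stood 0.21, 0.39, 1.95 and 1.34 above the control mean in model replicates 1 to 4, so replicates 3 and 4 were the highest. In treated against model 28 fell and none rose, with a median of -1.09, beside 9.32% lower and 10.3% higher over all genes. The treated-control comparison without treated replicate 3 held 2 higher calls among the 46, beside 5.29% called higher over all genes. Ifit1, an antiviral RNA-binding protein, measured 11.3, 4.97, 3.23 and 6.34 FPKM in the controls, 2.57, 6.78, 2.30 and 6.89 FPKM in the treated mice and 9.78, 10.4, 67.6 and 40.1 FPKM in the model mice. Treated and control values overlapped, and the treatment-model difference was -2.23 (adjusted p = 0.00598), with model replicates 3 and 4 far above 1 and 2.

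Grem1, an antagonist of BMP signals, measured 2.48 to 4.12 FPKM in the controls, 1.19 to 4.65 FPKM in the treated mice and 9.32 to 18.3 FPKM in the model mice. It differed by -0.34 from control (adjusted p = 0.470) and by -1.94 from the model (adjusted p = 0.000455). Over all genes, treated against model held 2563 calls (19.7%), and model against control held 1408 (10.8%). With only the treated and model libraries in the fit, treated against model held 0 calls, beside 2503 genes at an unadjusted p under 0.05. It held 1221 calls without treated replicate 1 and 1684 without model replicate 2.

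Several inflammatory and immediate early genes divided the treated mice. Of 23 immediate early genes, 10, 18, 2 and 16 lay above all 4 controls in treated replicates 1 to 4, and 9, 3, 13 and 1 below them. The list's median difference from the control mean was 0.07, 1.02, -0.36 and 0.50, so replicate 1 lay near control and replicates 2 and 4 above it. Egr1, a transcription factor induced within minutes of a stimulus, measured 29.2, 27.5, 31.5 and 31.1 FPKM in the controls and 75.2, 138, 31.0 and 120 FPKM in the treated mice. The groups overlapped through replicate 3 alone (log2 difference 1.38 ± 0.34, SE; adjusted p = 0.0811). Without that library the difference was 1.82 (adjusted p = 0.00027). The treatment-model difference for Egr1 was 1.51 (adjusted p = 0.00543), and in treated against model 6 of the 23 rose and none fell, beside 10.3% higher and 9.32% lower over all genes. Against control without replicate 3, 8 of the 23 were called higher and none lower, beside 5.29% and 15.1% over all genes in that fit.

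Il6, an inflammatory cytokine, measured 2.67, 0.684, 0.574 and 8.35 FPKM in the controls and 7.21, 37.8, 0.568 and 32.2 FPKM in the treated mice (log2 difference 1.88, adjusted p = 0.239). Cxcl10, an interferon-induced chemokine, measured 2.40 to 8.97 FPKM in the controls and 19.2, 43.8, 1.74 and 29.2 FPKM in the treated mice (log2 difference 1.31, adjusted p = 0.349). Il1b, the cytokine interleukin 1 beta, reached 59.9, 188 and 167 FPKM in treated replicates 1, 2 and 4 and 1.85 FPKM in replicate 3, with the controls at 4.18 to 35.8 FPKM (log2 difference 2.05, adjusted p = 0.339). None of the 3 genes separated the groups. Without replicate 3 the differences were 2.83 for Il6 (adjusted p = 0.0155), 2.17 for Cxcl10 (adjusted p = 0.0281) and 3.41 for Il1b (adjusted p = 0.0220). Of 36 cytokines and chemokines, 10, 22, 0 and 18 lay above all 4 controls in treated replicates 1 to 4. Without replicate 3, 8 of the 36 were called higher and 1 lower, beside 5.29% higher and 15.1% lower over all genes in that fit.

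A similar division among treated mice appeared in further genes, chosen with these values known. Ctla2a, a cysteine protease inhibitor, measured 54.5, 60.7, 39.4 and 71.8 FPKM in the controls, 285, 168, 25.6 and 232 FPKM in the treated mice and 313 to 689 FPKM in the model mice. Against control it was not called (log2 difference 1.22, adjusted p = 0.183), and it was lower than in the model (-1.85, adjusted p = 0.0154). Without treated replicate 3 the difference from control was 1.99 (adjusted p = 0.000429). C7, a terminal complement component, measured 116, 104, 23.6 and 98.9 FPKM in the treated mice against 35.1 to 48.1 FPKM in the controls (log2 difference 0.73, adjusted p = 0.265; without replicate 3 1.26, adjusted p = 0.00142).

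Lox, the collagen cross-linking enzyme, measured 58.2, 120, 17.6 and 95.5 FPKM in the treated mice against 30.5 to 48.1 FPKM in the controls (log2 difference 0.62, adjusted p = 0.353; without replicate 3 1.18, adjusted p = 0.00135). Defb8, a beta-defensin, gave 653, 200, 54.9 and 378 FPKM against 53.3 to 146 FPKM (1.56, adjusted p = 0.138). S100a7l2, a psoriasin-like S100 protein, gave 146, 25.1, 4.41 and 54.4 FPKM against 8.06 to 19.2 FPKM (1.30, adjusted p = 0.308). Serpina3k, a clade A serpin, gave 15.5, 2.46, 0.719 and 1.85 FPKM against 0.196 to 1.47 FPKM (1.30, adjusted p = 0.183). In each, replicates 1, 2 and 4 lay above the highest control and replicate 3 did not. Without replicate 3 the differences were 2.24 for Defb8 (adjusted p = 0.00275), 2.17 for S100a7l2 (adjusted p = 0.0123) and 1.71 for Serpina3k (adjusted p = 0.0292).

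**Figure D4:**
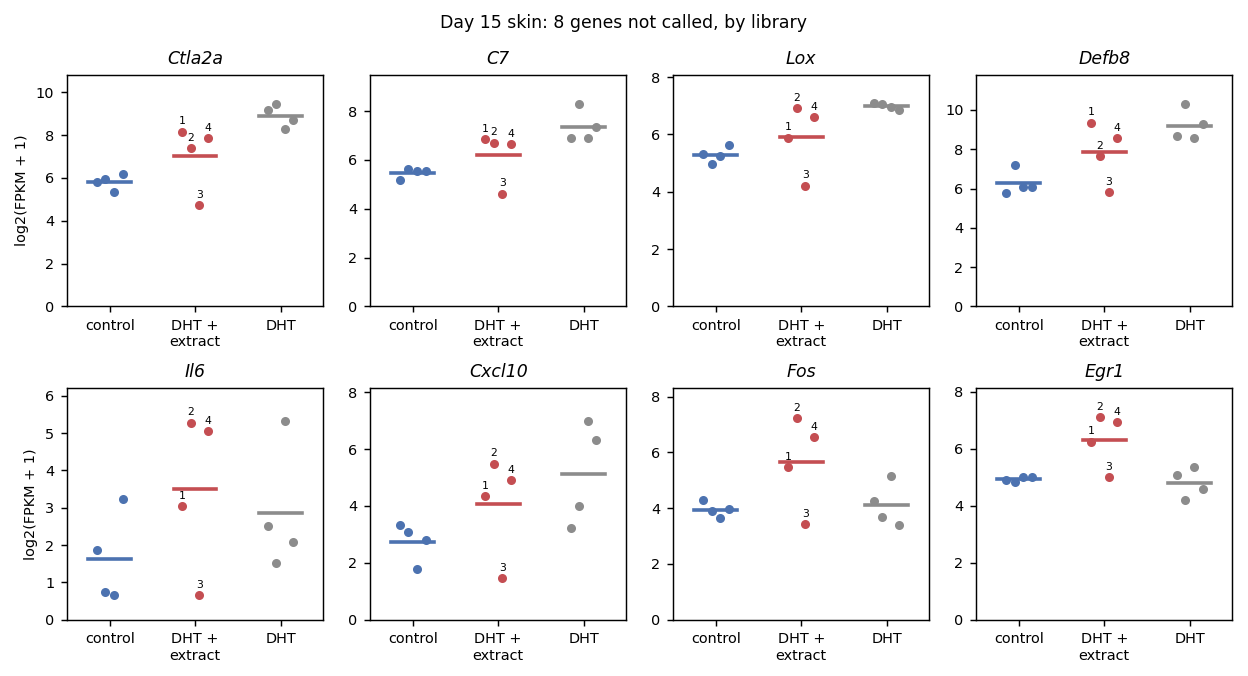
Points are single libraries of day 15 on the log2(FPKM + 1) scale for 8 genes that were not called between treated and control skin, with bars at the group mean of 4 mice and treated replicates numbered. Treated replicate 3 lies below replicates 1, 2 and 4 in all 8 panels, and within or below the control range.

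Dermal matrix genes split along the same line, and macrophage genes in part. Treated replicates 1, 2 and 4 were above all 4 controls in 41, 49 and 42 of 61 matrix genes, and replicate 3 was below all 4 in 54 of them. Col1a1, the main fibrillar collagen gene, measured 1101, 1058, 1435 and 1399 FPKM in the controls and 2093, 2282, 585 and 1488 FPKM in the treated mice (log2 difference 0.21, adjusted p = 0.747; without replicate 3 0.64, adjusted p = 0.0478). The direction for Col1a1 depended on the library left out, at -0.018 without treated replicate 2 and -0.41 without treated replicates 1 and 2. Without replicate 3, 23 matrix genes were called higher and 3 lower, beside 5.29% higher and 15.1% lower over all genes. Of 30 macrophage genes, 9, 20, 3 and 20 lay above all 4 controls in treated replicates 1 to 4, and 6, 3, 24 and 3 below them. Replicate 1 had a list median of 0.06, close to the control mean. Without replicate 3, 11 macrophage genes were called higher and 1 lower, beside the same shares over all genes. The receptor gene Csf1r measured 33.3 to 48.2 FPKM in the controls and 60.4, 117, 20.3 and 66.9 FPKM in the treated mice (0.50, adjusted p = 0.378; without replicate 3 0.98, adjusted p = 0.00200). Without treated replicates 1 and 2 its difference was -0.079.

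Muscle, fat and sex-linked transcripts also differed among treated mice. The median of 32 skeletal muscle genes stood 0.85 and 0.74 above the control mean in treated replicates 1 and 3, and at -0.18 and -0.34 in replicates 2 and 4. Myh4, the fast myosin heavy chain, measured 126 to 162 FPKM in the controls and 205, 20.3, 244 and 25.3 FPKM in the treated mice (log2 difference -0.95, adjusted p = 0.628). The 24 adipocyte genes had medians of -0.23, -0.56, 0.12 and -0.54 in treated replicates 1 to 4. All 24 treatment-control differences were negative without a call. Of the 24, 3 were called lower without replicate 3, beside 15.1% lower over all genes in that fit. Lpl, the lipoprotein lipase of fat and papilla, measured 186 to 278 FPKM in the controls and 90.7, 94.9, 212 and 122 FPKM in the treated mice (-0.87, adjusted p = 0.113; without replicate 3 -1.13, adjusted p = 0.00608).

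Y-linked Ddx3y, an RNA helicase, measured 27.0, 25.8, 24.3 and 23.3 FPKM in the controls and 10.4, 11.5, 26.0 and 17.5 FPKM in the treated mice. Treated replicates 1, 2 and 4 were below all controls for all 4 Y-linked genes tested, and replicate 3 for none. None of the 4 was called (adjusted p from 0.098 for Ddx3y to 0.144 for Uty), and all 4 were called lower without replicate 3 (Ddx3y -0.92, adjusted p = 0.000769, and Uty -0.51, adjusted p = 0.00123). The part of these differences, and of muscle, fat and immune content, in the calls was not tested. Without treated replicates 1 and 2, which were lowest in Y-linked transcripts, limma called 0 genes, with 489 at an unadjusted p under 0.05.

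Gene length moved with the libraries as well. When genes were split by length into 4 equal bins, the median difference from the control mean went from 0.06 in the shortest to -0.14 in the longest bin in treated replicate 1, from 0.00 to -0.14 in replicate 2, from 0.02 to 0.05 in replicate 3 and from 0.02 to -0.06 in replicate 4. In control replicates 1 to 4 it went from 0.03 to -0.01, 0.02 to 0.00, -0.01 to 0.02 and -0.03 to -0.01. The 37 genes called lower had a median length of 3457 bases and the 4 called higher 2243 bases, against 3344 bases over all genes tested. The part of length in the calls was not tested.

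Clock genes were mostly on the lower side of control. Of 18 tested circadian genes, 7 were lower and 1 was higher in every treated library than in every control, with a median of -0.24 and no call, beside 4% lower and 3.1% higher over all genes. Of the 18, 7 were called lower and none higher without treated replicate 3, beside 15.1% and 5.29% over all genes in that fit. Per2, a core repressor of the clock, measured 2.97 to 4.46 FPKM in the controls and 1.87, 1.55, 3.01 and 1.69 FPKM in the treated mice (log2 difference -0.62, adjusted p = 0.0872; without replicate 3 -0.76, adjusted p = 0.00325). Cry2, its partner, measured 7.32 to 9.21 FPKM in the controls and 5.84 to 6.77 FPKM in the treated mice (-0.40, adjusted p = 0.0869; without replicate 3 -0.38, adjusted p = 0.0228). The hour of sampling is not given in the sources used here.

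**Figure D5:**
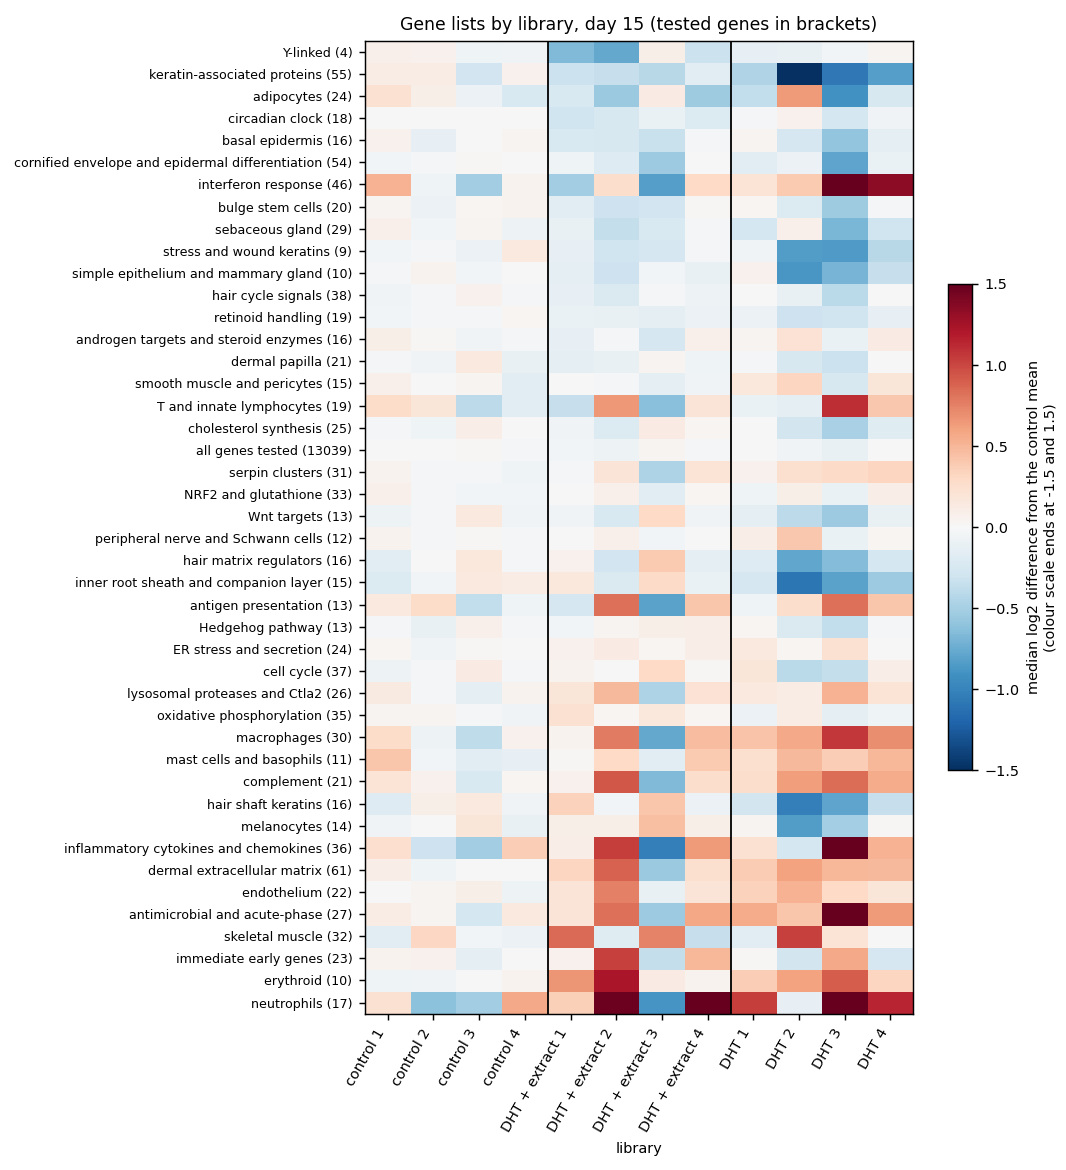
Rows are gene lists with the number of tested genes, columns are the 12 day-15 libraries, and colour gives the median log2 difference of a list's genes from the control mean, with the scale ending at -1.5 and 1.5. Treated replicate 3 is blue for immune and dermal matrix lists where replicates 2 and 4 are red, and the interferon and keratin-associated protein lists are strongest in the model columns.

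Between the days, 43 genes (0.33%) changed their treatment-control difference, 32 downward (0.245%) and 11 upward (0.0844%) from day 10 to day 15. This count ran from 11 without day-10 treated replicate 2 to 67 without day-10 treated replicate 1, and it was under 30 without any 1 of the 8 control libraries or of day-10 treated replicates 2, 3 and 4 and day-15 treated replicate 1. At day 10, treated against control held 423 calls (3.24%, with 2.2% higher and 1.04% lower). Klf10 was not called at day 10 (log2 difference 0.22, adjusted p = 0.304) and fell at day 15, and the change between the days was -1.10 ± 0.19 (SE; adjusted p = 0.0145). Sprr2f had a difference of 0.88 at day 10 and -1.02 at day 15 (change -1.90, adjusted p = 0.000628). Wdr89 was lower in treated skin at day 10 (-0.37, adjusted p = 0.0425) and higher at day 15 (change 0.95, adjusted p = 0.00116).

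The antimicrobial genes Defb8 and S100a7l2 had large differences at day 10 and smaller ones at day 15. At day 10, 9 of 27 antimicrobial and acute-phase genes rose and 1 fell, beside 2.2% higher and 1.04% lower over all genes. The test of change was passed by 2 of the 27, both downward, beside 0.245% downward over all genes. Defb8 measured 671 to 1139 FPKM in treated and 9.98 to 19.5 FPKM in control mice at day 10, and its log2 difference went from 5.92 to 1.56 (change -4.36, adjusted p = 0.0207). S100a7l2 went from 6.42 to 1.30 (change -5.12, adjusted p = 0.0313). Serpinb6e, at -3.00 on day 10 and -1.68 on day 15, did not pass the test of the change (1.32, adjusted p = 0.110), nor did Serpina3b, at -1.40 and -1.28 (0.12, adjusted p = 0.908). Among the upward changes, Kap and S100g, genes typical of kidney, were listed at 0 in all treated and control libraries of day 15 and in the treated libraries of day 10, and the kidney markers summed to 24.5 to 28.1 FPKM in day-10 controls.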

How the data were processed

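RNA from the skin of 24 mice (3 groups, 2 days, 4 mice each) was extracted with TRIzol and made into poly(A) libraries, per the labels' protocols. The submitters' processing notes name fastp, HISAT2, HTSeq and build GRCm39, with no versions. The authors deposited 1 table of FPKM values per gene, and no raw counts were used. Values were tested as log2(FPKM + 1), with a pseudocount of 1, in limma 3.58.1 (R 4.3.3) with 1 mean per group over all 24 libraries, trended and robust variance, and Benjamini-Hochberg adjustment. Genes that reached 1 FPKM in fewer than 4 libraries (5853 genes) were left out. The pseudocount understates changes of low genes. FPKM steps gave whole reads for 99.995% of genes (18714 of 18715, within 0.01 read), and limma's voom on them was an added alternative. The fit was tested on simulated data.

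Groups come from the labels. The 14 largest falls and all rises among called genes with a mean of at least 2 FPKM and no overlap were named, with up to 4 genes of lowest p per list and a panel. Other genes, among them Rsrp1, Zfp948, Sec62, Sgms1, Il1b, Col1a1, Csf1r and Myh4, were chosen after their values were seen. The members and lists were chosen with earlier results of these data known. Alternatives were another pseudocount, filter, scaling, weighting, sample set, a replicate block and single libraries left out. Figures were drawn with matplotlib 3.10.9 (python 3.11.15). A few genes are not reported here.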

Additional observations from a re-analysis of the deposited data

Results flagged for a closer look

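Single libraries stood far from the other 3 of their group for 12 genes among 234 groups of 4 tested, in 13 cases, where chance gives about 1 in 20 groups. Among treated mice, replicate 3 was high for Rsrp1 (112.6 FPKM against 33.7 to 42.1 in the others), Serpinb6d (5.04 against 0.413 to 0.525) and Mup20, a urinary protein with near-identical copies (4.32 against 0.0266 to 0.107). Replicate 2 was low for Ccl27a (3.51 FPKM against 5.60 to 5.89). Replicate 1 was high for Serpina3k (15.5 against 0.719 to 2.46) and for the steroid reductase gene Akr1c18 (8.02 against 4.81 to 5.22), and replicate 4 for Cry2 (6.77 against 5.84 to 5.86).

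Among controls, replicate 3 was low for Sprr2f (0.818 FPKM against 1.64 to 1.65), Zfp948 (4.02 against 5.21 to 5.45), Akr1c18 (7.56 against 10.2 to 10.5) and Krtap3-2 (268 against 398 to 404). Replicate 2 was high for Defb8 (146 FPKM against 53.3 to 67.5) and replicate 4 for Icosl (6.99 against 6.09 to 6.20).

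The treatment-control difference changed between day 10 and day 15 by limma's interaction test (adjusted p under 0.05) for further genes named here. Upward changes in log2 were 4.50 for Kap, 1.84 for S100g, 0.95 for Wdr89 and 0.62 for the linker histone gene H1f0. Kap and S100g are genes read in day-10 control skin beside kidney markers, so their change rests on those 4 libraries. Downward changes were -5.12 for S100a7l2, -4.36 for Defb8, -2.79 for the metalloproteinase gene Mmp19, -2.59 for the muscle gene Xirp1, -2.23 for Ifi202b, -1.90 for Sprr2f, -1.67 for Ifi205, -1.17 for Tsc22d3 and -1.10 for Klf10. Smaller ones were -0.69 for Fam83a, -0.64 for Sgms1 and -0.59 for Ahnak.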

How the results depend on the processing

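The 41 calls (4 higher, 37 lower) between treated and control skin moved with most settings. They numbered 11 (1 higher, 10 lower) with a pseudocount of 0.1, 16 (3 and 13) with no filter, 20 (3 and 17) at a mean of at least 5 FPKM, 16 (1 and 15) with a common total, 12 (2 and 10) with quantile normalization and 1820 (443 and 1377) with array weights. Median-of-ratios scaling gave 45 calls, 7 of them higher. With only the 2 groups fitted, limma called 0 genes (0 higher, 0 lower), beside 1663 at an unadjusted p under 0.05. Without treated replicates 1 and 2, an alternative added after seeing the data, it called 0 (0 and 0), beside 489. Voom on recovered reads, also added after seeing the data, gave 13 (1 and 12), all 13 among the 41. With 1 library left out the calls ranged from 0 to 2665, the higher from 0 to 690 and the lower from 0 to 1975. The replicate block gave 26 calls (1 higher, 25 lower). The shared numbers do not pair the samples: same-number correlations of treated and control deviations were -0.304, -0.214, 0.509 and 0.204, and not every library correlated best with its own number. Treated against model (2563) gave 0 with only those 2 groups, 1329 without treated replicates 1 and 2, and 1221 to 2947 with 1 library left out. The change between days (43) gave 99 with no filter, 19 at a mean of at least 5 FPKM, 510 with array weights, 23 with the replicate block, 22 with voom, 17 without treated replicates 1 and 2, and 11 to 67 with 1 library left out. Fewer samples enter the fits that leave libraries out, and for the other settings the cause was not tested. Of 2298 values for 122 named genes across settings, 1686 kept direction and side of the threshold, 490 lost and 97 gained a call, and 25 turned direction, in 12 uncalled genes with no call after the turn. These were Bmp4 with a common total (-0.023) and array weights (-0.082), Shh with quantile normalization (0.0034) and array weights (0.0058), and Lef1 with array weights (-0.013). Without treated replicates 1 and 2 they were Fkbp5 (-0.18), Srd5a1 (0.039), Wnt10b (0.016), Shh (0.093), Ctnnb1 (0.015), Col1a1 (-0.41), Col3a1 (-0.16), Csf1r (-0.079) and C1qa (-0.16). With 1 library left out, ranges that cross 0 were -0.088 to 0.25 for Fkbp5, -0.15 to 0.044 for Srd5a1, -0.028 to 0.40 for Fgf7, -0.16 to 0.093 for Bmp4, -0.097 to 0.021 for Shh, -0.085 to 0.16 for Lef1 and -0.018 to 0.64 for Col1a1. Depth limits genes near 0, such as Hamp2, where limma's difference depends on the pseudocount.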

Other observations

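Mitochondrial and pigment genes sat slightly above control in treated skin, by amounts that differed among the mice. Of 35 oxidative phosphorylation genes, 28 had positive treatment-control differences (median 0.10) and 5 were higher in every treated library than in every control, beside 3.1% over all genes, with no call. Their median difference from the control mean was 0.23, 0.03, 0.16 and 0.03 in treated replicates 1 to 4, so replicates 1 and 3 were the highest. Against the model 10 of the 35 rose and none fell, with a median of 0.14, beside 10.3% higher and 9.32% lower over all genes. Of 14 melanocyte genes, 12 had positive differences against control (median 0.15, no call). Against the model 5 of the 14 rose and none fell, with a median of 0.43, beside the same shares over all genes. The melanocyte median stood 0.45 above the control mean in treated replicate 3 and 0.09 above it in replicates 1, 2 and 4. Of 20 bulge stem cell genes, 18 had negative differences against control, 5 were lower in every treated library, beside 4% over all genes, and none was called (median -0.15).

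Zinc finger genes with symbols starting in Zfp, grouped after their values were seen, held 3 falls and no rise among 294 tested genes, beside 0.284% lower over all genes, with a median of -0.15. Their median difference from the control mean was -0.21, -0.34 and -0.17 in treated replicates 1, 2 and 4 and 0.10 in replicate 3. Against the model 78 fell and 7 rose, beside 9.32% lower and 10.3% higher over all genes. The scaffold gene Ahnak was even across treated mice, at 62.9 to 74.3 FPKM against 86.6 to 104.8 FPKM in the controls (limma log2 difference -0.42, adjusted p = 0.0316).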
